A study of Mus musculus with 4 samples.

Results

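Solute carriers are the large family of membrane proteins that move amino acids, sugars, ions, metals, vitamins and other small molecules across the cell surface and across the membranes of organelles. The genes described here are all rows of the deposited table whose symbol begins with Slc followed by a digit. There were 7 of them among the 282 genes in the table, namely Slc15a3, Slc24a3, Slc7a10, Slc22a15, Slc39a4, Slc22a5 and Slc17a9. The symbol alone chose them, but the table itself holds only genes that the authors had called different between the same libraries, with adjusted p-values of at most 0.0497 and absolute log2 fold changes of at least 1.00 in their own columns.

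The libraries came from regulatory T cells (Tregs), the Foxp3-expressing CD4 T cells that restrain immune responses, taken from spleen and lymph nodes of male Foxp3RFP-Cre.RosaYFPMll1fl/fl mice, 6 to 8 weeks old. Every cell was RFP+, which marks Foxp3 and its linked Cre, and every donor mouse carried the floxed Mll1 locus (Kmt2a), which encodes a histone methyltransferase. The RFP+YFP+ cells, in which Cre had switched on the Rosa reporter, carry the label MLL1KO and are called YFP-positive below. The RFP+YFP- cells of the same genotype, in which the reporter was not on, carry the label WT and are called YFP-negative. Each population had 2 libraries, under mouse numbers 1 and 2, without a statement of whether a number is a single animal or a pool, so the p-values measure the spread between these libraries only. Kmt2a and Foxp3 were not analysed here, and neither the deletion nor the Treg identity of the libraries was checked, since none of the 6 Treg markers looked for (Foxp3, Il2ra, Ctla4, Ikzf2, Cd4 and Cd3e) was in the table.

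T cells take up nutrients through solute carriers, and the set a cell displays differs between resting and activated states. Glucose, large neutral amino acids and glutamine enter activated T cells through well-known members such as Slc2a1, Slc7a5 with Slc3a2, and Slc1a5. Other members set cytosolic calcium and zinc, which take part in T cell receptor signalling, or load vesicles and lysosomes. MLL1 places methyl groups on histone H3 lysine 4 near gene starts, and its CXXC domain binds DNA that holds unmethylated CG pairs.

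Of the 7 solute carrier genes, 5 were lower and 2 were higher in YFP-positive than in YFP-negative Tregs. The lower genes encode an endolysosomal histidine and peptide transporter (Slc15a3), a calcium exchanger (Slc24a3), a small neutral amino acid transporter (Slc7a10), an organic ion transporter (Slc22a15) and a zinc importer (Slc39a4). The higher genes encode the carnitine transporter (Slc22a5) and the vesicular nucleotide transporter (Slc17a9). By limma with Benjamini-Hochberg adjustment over the 282 genes, 7 of 7 passed an adjusted p of 0.05 and the groups did not overlap in 7 of 7, but 100% of all listed genes did both, because the table was selected on these libraries. The direction split was also that of the table, in which 69.5% of the genes were lower and 30.5% were higher, against 71.4% lower among the solute carriers. The median limma log2 fold change was -2.56 over the 5 lower solute carriers and -1.90 over all 196 lower genes. It was 1.31 over the 2 higher solute carriers and 1.79 over all 86 higher genes.

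The stretches of DNA before the starts of 3 members are shown because MLL1 acts at gene starts and because these genes moved in different directions. They are the 250 bases upstream of the RefSeq start in build GRCm38.p6, written 5′ to 3′ on the gene's strand, with each CG pair in capitals. RefSeq and deposited gene starts can differ. The Slc24a3 window ends at 145167774, inside the deposited gene, which starts at 145167754. The RefSeq start of Slc22a5 (53891703) lies outside the deposited gene, whose start on the minus strand is 53891660. Slc24a3 and Slc7a10 were lower and Slc22a5 was higher in YFP-positive Tregs.
Slc24a3 (chr2:145167525-145167774, plus strand): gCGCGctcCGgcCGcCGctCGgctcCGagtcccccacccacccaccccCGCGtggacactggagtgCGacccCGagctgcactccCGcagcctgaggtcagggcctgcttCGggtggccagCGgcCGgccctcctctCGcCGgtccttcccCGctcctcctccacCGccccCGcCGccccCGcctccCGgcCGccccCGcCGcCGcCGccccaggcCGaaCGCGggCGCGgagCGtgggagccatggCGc
Slc7a10 (chr7:35186135-35186384, plus strand): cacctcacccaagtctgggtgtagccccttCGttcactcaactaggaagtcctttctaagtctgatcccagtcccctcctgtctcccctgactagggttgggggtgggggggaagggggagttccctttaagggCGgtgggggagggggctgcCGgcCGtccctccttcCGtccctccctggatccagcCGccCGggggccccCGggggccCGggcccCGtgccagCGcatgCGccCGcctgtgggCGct
Slc22a5 (chr11:53891704-53891953, minus strand): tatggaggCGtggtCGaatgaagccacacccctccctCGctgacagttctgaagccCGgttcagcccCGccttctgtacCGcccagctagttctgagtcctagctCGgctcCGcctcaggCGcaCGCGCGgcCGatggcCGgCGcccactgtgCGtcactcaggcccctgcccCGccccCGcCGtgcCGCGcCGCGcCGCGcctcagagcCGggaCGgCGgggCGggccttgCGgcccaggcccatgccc

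These windows held 35 CG pairs for Slc24a3, 14 for Slc7a10 and 30 for Slc22a5, whereas the median over 32851 RefSeq windows of the same length was 6. The window of Slc22a15 held 24. Fewer CG pairs were found in 97.0% of all windows than in that of Slc24a3, in 94.1% than in that of Slc22a5, in 88.0% than in that of Slc22a15 and in 70.6% than in that of Slc7a10. Lower and higher members were both above the median. MLL1 binding, histone methylation and CG methylation were not measured in these libraries, so the counts do not show which genes MLL1 acts on. A second RefSeq start of Slc24a3, inside the gene (chr2:145242361-145242610 for its window), held 14. The AP-1 motif TGANTCA and the RUNX motif TGTGGT, searched on both strands, were found in none of these 5 windows, and in 6.75% and 14.05% of all windows. Of the 7 members, 4 matched the RefSeq promoter table, and Slc15a3, Slc17a9 and Slc39a4 did not.

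Amino acid and peptide carriers were represented by 2 members, both lower. Slc15a3 (ENSMUSG00000024737, mm10 chromosome 19, 10839727 to 10859362, plus strand) encodes a proton-coupled transporter of histidine and small peptides in endosomes and lysosomes, known from macrophages and dendritic cells, where it carries bacterial cell wall peptides to the cytosol. Its normalized count, the deposited value, which is read here as reads scaled by library, was 10.4 and 30.8 in YFP-positive mice 1 and 2, and 184 and 174 in YFP-negative mice 1 and 2. The YFP-negative libraries were nearly level, the YFP-positive libraries differed from each other 2.96-fold, and the closest pair across the groups was still 5.65-fold apart. The mean was 20.6 ± 14.4 against 179 ± 7.53 (SD, n = 2 each), an 8.70-fold lower level, and the log2 value fell by 3.24 ± 0.54 (SE; limma adjusted p = 1.70e-06). That size leaned on the YFP-positive libraries. The log2 fold change was -2.50 without YFP-positive mouse 1 and -3.98 without YFP-positive mouse 2, with limma adjusted p = 0.00841 and 0.00348.

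The Slc15a3 exons share 1541 bases, 31.7% of its longest transcript of 4868 bases, with Tmem132a, which lies across the gene's end on the minus strand. An antisense RNA, AC132402.1, lies within its span and shared no sequence of at least 75 bases and 95% identity with that transcript. The strand setting of the counting was not given in the sources used here, so reads from Slc15a3 and Tmem132a in the shared bases cannot be told apart, and its level is uncertain to that extent. Since macrophages, dendritic cells and B cells are also known to express Slc15a3, markers of other cells were looked for. None of 6 monocyte and macrophage markers and none of 5 dendritic cell markers was in the table, which says nothing of their level. Of 7 B cell markers 1 was listed, Igkc, the immunoglobulin kappa constant gene, with normalized counts of 249 and 280 in the YFP-positive and 1503 and 1072 in the YFP-negative libraries of mice 1 and 2. Of 4 natural killer cell markers 1 was listed, Gzma, with 7.28 and 37.1 against 109 and 253, and of 5 stromal and endothelial markers 1 was listed, Pecam1, with 1443 and 1340 against 552 and 658. No marker of plasma cells (of 4), CD8 T cells (of 2), granulocytes and mast cells (of 6) or erythroid cells and platelets (of 8) was listed. Listed genes outside these marker lists that B cells also express went both ways. Cd72 and H2-Ob were higher in YFP-positive Tregs (limma log2 fold change 1.56 and 1.80), and Lyn was lower (-2.52). These genes are examples and were on no list fixed beforehand. Listed genes of monocytes, macrophages and dendritic cells outside the marker lists were not looked up in the same way. The part of other cells in the solute carrier differences was not tested. In sorted bulk cells, fewer cells with a transcript and less of it per cell cannot be told apart.

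Slc7a10 (ENSMUSG00000030495, chromosome 7, 35186385 to 35201114, plus strand) encodes Asc-1, which exchanges small neutral amino acids such as alanine, serine, cysteine and glycine and works with the heavy chain encoded by Slc3a2. Per length it had the highest mean of the 7 in YFP-negative Tregs, although its libraries overlapped with those of Slc39a4. Its normalized count was 84.2 and 233 in YFP-positive mice 1 and 2, against 705 and 981 in YFP-negative mice 1 and 2. All 4 libraries stood well apart, and the higher YFP-positive library was 3.02-fold below the lower YFP-negative library. The means were 159 ± 105 and 843 ± 195 (SD, n = 2 each), 5.31-fold lower in YFP-positive Tregs, and the log2 value fell by 2.56 ± 0.38 (SE; limma adjusted p = 3.84e-07). The YFP-positive libraries differed 2.77-fold from each other. The log2 fold change was -1.83 without YFP-positive mouse 1 and -3.29 without YFP-positive mouse 2, with limma adjusted p = 0.0121 and 0.00348. The end of Slc7a10 overlaps Lrp3 on the minus strand, and 390 bases, 19.97% of its longest transcript, are shared with Lrp3 transcripts, so reads of the 2 genes there cannot be told apart either. Its partner Slc3a2 was not analysed here.

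**Figure D1:**
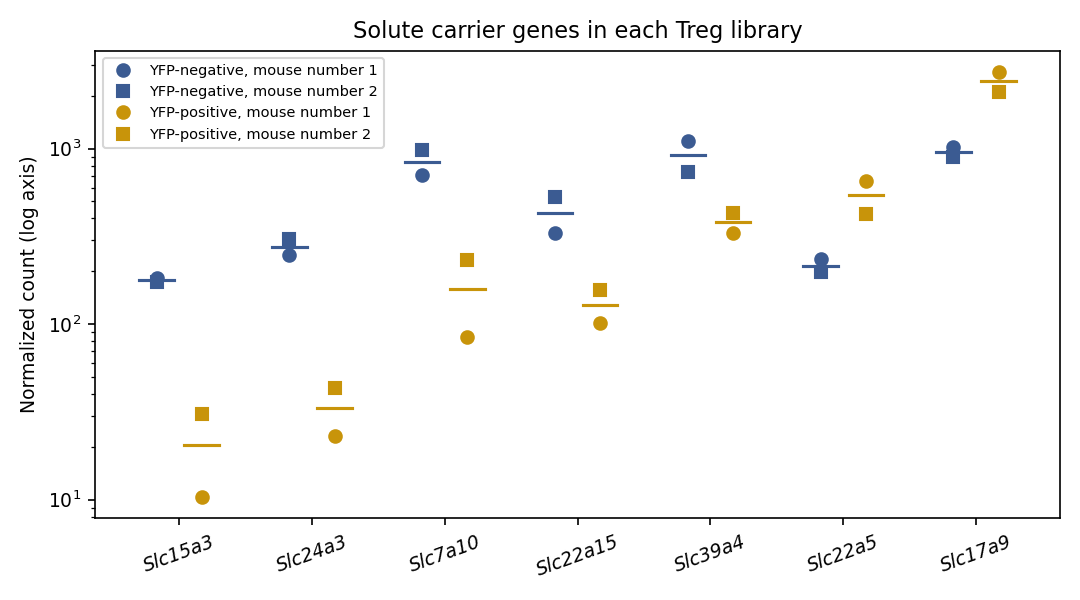
Normalized counts (log axis) of the 7 solute carrier genes, with YFP-negative libraries in blue, YFP-positive libraries in ochre, circles for mouse number 1, squares for mouse number 2 and bars for group means (n = 2 each). The 2 groups do not overlap for any gene, and the widest gap between libraries of the same population is that of Slc15a3 in YFP-positive Tregs (10.4 and 30.8).

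Ion carriers were represented by a calcium exchanger and a zinc importer, both lower. Slc24a3 (ENSMUSG00000063873, chromosome 2, 145167754 to 145642166, plus strand) encodes NCKX3, an exchanger at the cell surface that brings in sodium and moves out calcium together with potassium. Its normalized count was 22.9 and 43.5 in YFP-positive mice 1 and 2 and 247 and 304 in YFP-negative mice 1 and 2. Both YFP-positive libraries were far below both YFP-negative libraries, with 5.68-fold between the closest pair. The means were 33.2 ± 14.6 and 276 ± 40.4 (SD, n = 2 each), an 8.31-fold lower level, and the log2 value fell by 3.08 ± 0.47 (SE; limma adjusted p = 5.04e-07). In the authors' deposited table its p-value ranked 17 of 282, the highest place of any solute carrier, with an adjusted p of 1.1e-07.

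Slc24a3 spans 474413 bases with 17 exons in its longest transcript. That transcript shared no sequence of at least 75 bases and 95% identity with transcripts of other genes. Small noncoding genes, a pseudogene and the antisense RNA Gm14092 lie within the span of Slc24a3. The next protein-coding gene downstream, Rin2, which encodes a Ras and Rab5 interacting protein, starts 33048 bases beyond its end and was also in the table. Rin2 was counted at 95.7 and 82.7 in YFP-positive and 309 and 211 in YFP-negative mice 1 and 2, and fell by 1.51 ± 0.42 on the log2 scale (limma adjusted p = 0.000824). Of the 14 protein-coding genes that flank the 7 members in the GENCODE annotation, Rin2 was the only 1 in the table.

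Slc39a4 (ENSMUSG00000063354, chromosome 15, 76612383 to 76617384, minus strand) encodes ZIP4, a zinc importer best known from the intestine, where its loss causes zinc deficiency. Its normalized count was 329 and 431 in YFP-positive mice 1 and 2 and 1102 and 733 in YFP-negative mice 1 and 2. The gap between the populations was the narrowest of the 7, with 1.70-fold between the 431 of YFP-positive mouse 2 and the 733 of YFP-negative mouse 2. The means were 380 ± 72.0 and 918 ± 261 (SD, n = 2 each), 2.42-fold lower in YFP-positive Tregs, and the log2 value fell by 1.25 ± 0.34 (SE; limma adjusted p = 0.000726). This difference did not pass without YFP-positive mouse 1 (log2 fold change -1.06, limma adjusted p = 0.0562), nor when the libraries were rescaled to equal medians over the listed genes (-0.52, limma adjusted p = 0.124). Over all its alternatives the limma adjusted p ran from 0.000461 to 0.124. The other 13 annotated genes of the Slc39 family were not in the table.

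Carriers of organic ions numbered 3, and they did not move together. Slc22a5 (ENSMUSG00000018900, chromosome 11, 53864542 to 53891660, minus strand) encodes OCTN2, the sodium-dependent carnitine transporter of the cell surface, and carnitine is needed to bring long-chain fatty acids into mitochondria. Its normalized count was 658 and 426 in YFP-positive mice 1 and 2 and 234 and 197 in YFP-negative mice 1 and 2. Both YFP-positive libraries were above both YFP-negative libraries, by 1.82-fold at the closest. The means were 542 ± 164 and 216 ± 26.3 (SD, n = 2 each), 2.51-fold higher in YFP-positive Tregs, with a limma log2 fold change of 1.30 ± 0.36 (SE; adjusted p = 0.000857). The adjacent coding gene upstream of its start is the close relative Slc22a21, whose transcripts match 1275 bases, 41.6% of the longest Slc22a5 transcript, at 95% identity or more. How reads with several matches were counted was not given in the sources used here, so the split between these 2 genes is uncertain.

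Slc22a15 (ENSMUSG00000033147, chromosome 3, 101855776 to 101924453, minus strand) belongs to the same organic ion family and was lower. Its normalized count was 101 and 156 in YFP-positive mice 1 and 2 and 329 and 527 in YFP-negative mice 1 and 2. The libraries of mouse 2 were higher than those of mouse 1 in both populations, and the closest pair across the groups differed 2.11-fold. The means were 128 ± 38.9 and 428 ± 140 (SD, n = 2 each), 3.34-fold lower in YFP-positive Tregs, and the log2 value fell by 1.72 ± 0.39 (SE; limma adjusted p = 0.000109). Of 25 annotated protein-coding Slc22 genes, these 2 were in the table, with opposite directions.

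Slc17a9 (ENSMUSG00000023393, chromosome 2, 180725263 to 180742280, plus strand) encodes VNUT, which loads ATP and other nucleotides into secretory vesicles and lysosomes, from where ATP can be released outside the cell. Its family is named for organic anions. The normalized count was 2736 and 2104 in YFP-positive mice 1 and 2 and 1021 and 893 in YFP-negative mice 1 and 2. Its YFP-positive libraries were the highest of any solute carrier, and the closest pair across the groups differed 2.06-fold. The means were 2420 ± 447 and 957 ± 90.5 (SD, n = 2 each), 2.53-fold higher in YFP-positive Tregs, with a limma log2 fold change of 1.33 ± 0.34 (SE; adjusted p = 0.000398). Its longest transcript shared no sequence with other genes by the same criteria.

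Because each mouse number had both populations, the difference was also taken within each number, as a value with no test. The log2 difference on the log2(normalized count + 1) scale was -4.02 in mouse 1 and -2.46 in mouse 2 for Slc15a3, -3.38 and -2.78 for Slc24a3, and -3.05 and -2.07 for Slc7a10. It was -1.74 and -0.77 for Slc39a4, so the zinc importer was 3.35-fold lower in mouse 1 and 1.70-fold lower in mouse 2. Slc22a15 was nearly the same in both, at -1.70 and -1.75. The higher genes differed by 1.49 and 1.11 for Slc22a5 and by 1.42 and 1.24 for Slc17a9. The difference was larger in mouse 1 for 6 of the 7 genes, with Slc22a15 as the exception, and it was larger in mouse 1 for 73.8% of all 282 genes.

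**Figure D2:**
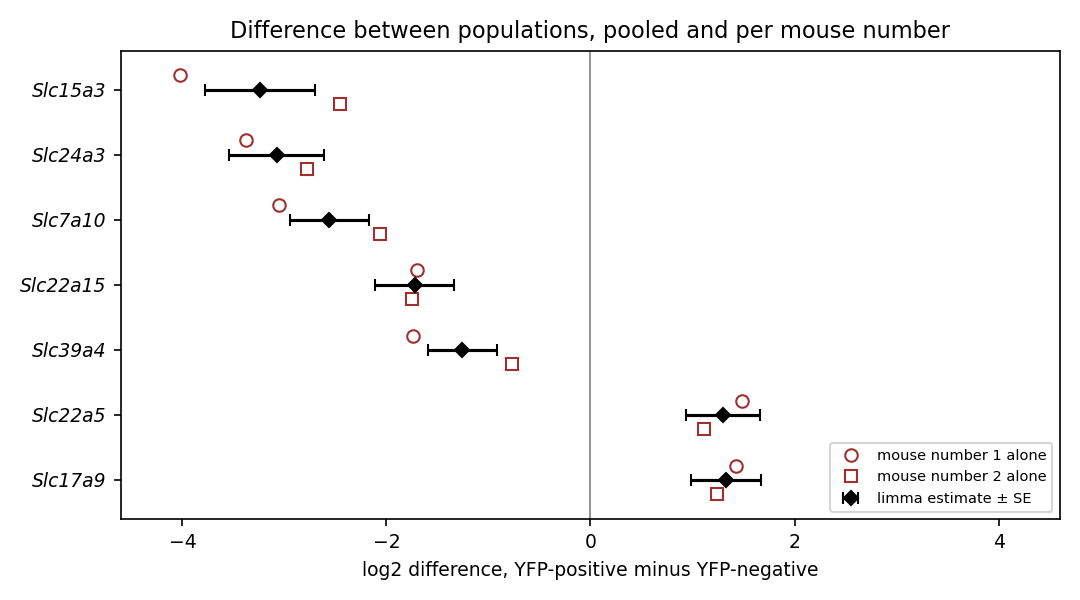
Log2 difference, YFP-positive minus YFP-negative, for each solute carrier gene, with the limma estimate and its SE as black diamonds and the differences within mouse number 1 (circles) and mouse number 2 (squares) as open symbols. Mouse 1 lies farther from 0 than mouse 2 for 6 genes, and Slc22a15 has nearly equal values (-1.70 and -1.75).

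YFP-positive mouse 1 was farther from the YFP-negative libraries than YFP-positive mouse 2 for 7 of 7 solute carriers, being the lowest library for the 5 lower genes and the highest for the 2 higher genes. The same held for 205 of all 282 genes (72.7%), so it is a feature of the table and not of the family. Among the YFP-negative libraries, mouse 1 was the farther from the YFP-positive libraries for 2 of the 7 genes, Slc15a3 and Slc39a4, and for 153 of all 282 genes.

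For an order of levels between genes, the counts were divided by the gene length in the deposited table. In YFP-negative Tregs the order of the normalized count per kb was Slc7a10 (399 ± 92.4, SD, n = 2), Slc17a9 (299 ± 28.3), Slc39a4 (295 ± 83.9), Slc22a5 (70.2 ± 8.58), Slc24a3 (60.4 ± 8.84), Slc15a3 (32.6 ± 1.37) and Slc22a15 (30.1 ± 9.83). The libraries of Slc39a4 overlapped with those of both Slc7a10 and Slc17a9, and in mouse 1 Slc39a4 (355 per kb) was above Slc7a10 (334 per kb). Those of Slc22a5 and Slc24a3 overlapped, as did those of Slc15a3 and Slc22a15, so the order within these pairs does not stand beyond their spread. In YFP-positive Tregs the order was Slc17a9 (756 ± 140), Slc22a5 (177 ± 53.4), Slc39a4 (122 ± 23.2), Slc7a10 (75.2 ± 49.9), Slc22a15 (9.02 ± 2.73), Slc24a3 (7.27 ± 3.19) and Slc15a3 (3.75 ± 2.62). There the libraries of Slc39a4 and Slc7a10 overlapped, as did those of Slc22a15 and Slc24a3 and those of Slc24a3 and Slc15a3. YFP-positive mouse 2 had 139 per kb for both Slc22a5 and Slc39a4, so their order does not stand beyond their spread either. Slc17a9 was above the other 6 genes in both YFP-positive libraries. The deposited gene length of Slc22a15 was 14239 bases, whereas its longest annotated transcript has 6573. For no other member were these lengths so far apart, so the place of Slc22a15 in both orders depends on the length used.

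**Figure D3:**
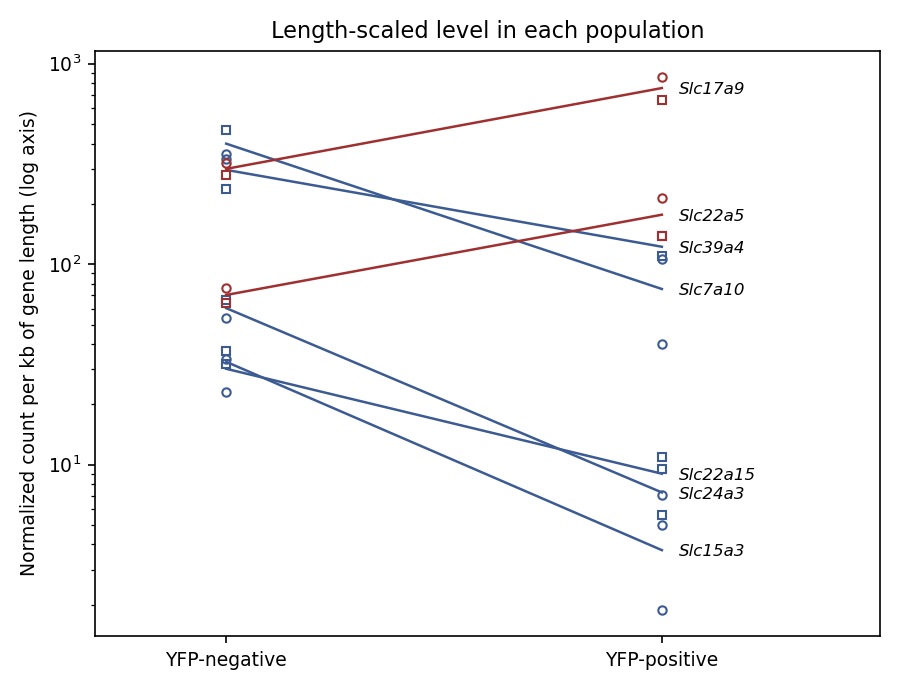
Normalized count per kb of gene length (log axis) in YFP-negative and YFP-positive Tregs, with circles for mouse number 1, squares for mouse number 2 and lines joining the group means; red genes were higher and blue genes lower in YFP-positive Tregs. Slc7a10 has the highest mean in YFP-negative Tregs (399), with libraries that overlap those of Slc39a4, and Slc17a9 is highest in both YFP-positive libraries (mean 756).

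Within the table, Slc15a3 and Slc24a3 were nearest the strong end, Slc7a10 came next, and the other members were farther from it. By limma log2 fold change Slc15a3 held place 14 and Slc24a3 place 16 among the 196 lower genes, followed by Slc7a10 at place 35, Slc22a15 at place 117 and Slc39a4 at place 175. Slc17a9 and Slc22a5 held places 70 and 71 among the 86 higher genes. All 7 had a mean of at least 50 normalized counts, as did 256 of the 282 genes, and the lowest mean over the 4 libraries among the members was 99.8, for Slc15a3.

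**Figure D4:**
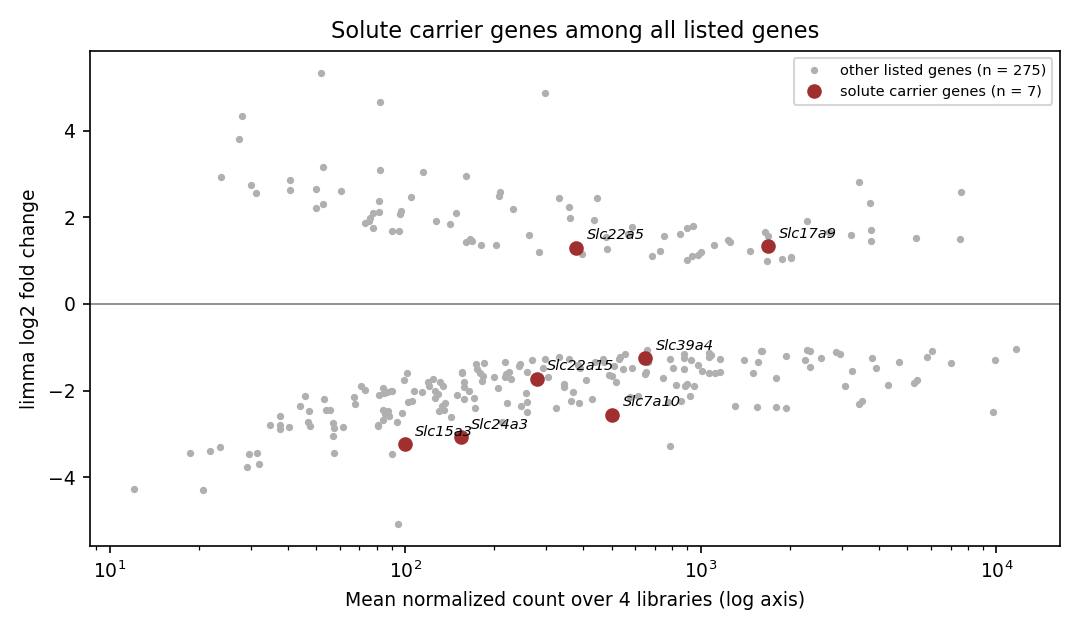
Limma log2 fold change against the mean normalized count over the 4 libraries (log axis) for all 282 listed genes, with the 7 solute carriers in red. Slc15a3 (-3.24) and Slc24a3 (-3.08) lie among the largest falls at their level, and Slc17a9 (1.33) and Slc22a5 (1.30) lie among the smaller rises. The band around 0 is empty because the table holds only genes that the authors had called different.

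For the 2 genes with the largest falls, the listed genes with the most similar pattern were found by the root mean square distance of log2 values, centred on each gene's mean, over the 4 libraries. The closest to Slc15a3 were Pxdc1, Rai14 and Rassf6, at distances of 0.11, 0.13 and 0.20. Rai14 and Rassf6 had 1.04 normalized counts each in YFP-positive mouse 1 and Pxdc1 had 2.08, so their patterns rest on very low values. The closest to Slc24a3 were Cobll1, Tmem51 and Lrrn4, at distances of 0.15, 0.18 and 0.18. Cobll1 was counted at 9.36 and 21.2 in YFP-positive and 104 and 112 in YFP-negative mice 1 and 2. Lrrn4 also rests on very low values, with 2.08 and 5.30 in YFP-positive mice 1 and 2.

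Other membrane transport genes that could be found by symbol were sparse in the table. Transport genes under other symbols, including placeholder names that begin with Gm, would be missed by this search and by the Slc rule. Among ABC transporters, ion pumps, ion channels, aquaporins, connexins and other carriers found by symbol, 2 were listed, and both were higher in YFP-positive Tregs. Trpm1, a cation channel gene, was counted at 55.1 and 90.1 in YFP-positive and 9.80 and 8.10 in YFP-negative mice 1 and 2, a limma log2 fold change of 2.85 ± 0.64 (SE; adjusted p = 9.94e-05). Stra6, a retinol transporter gene outside the Slc symbols, was the other. Of 20 nutrient transporters known from T cell activation, Slc2a1, Slc7a5, Slc3a2 and Slc1a5 among them, 0 were in the table. The annotation holds 371 protein-coding genes with such Slc symbols in 49 numbered families, and 364 of them have no value here, which does not show that they were alike in both populations.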

How the data were processed

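RNA was sequenced from 2 YFP-positive and 2 YFP-negative Treg libraries, each from 300000 sorted cells at a purity above 95% per the labels' protocols. The submitters' processing notes name the mm10 build, featureCounts 1.5.0-p3, HISAT2 2.0.5, StringTie 1.3.3b, and DESeq2 1.16.1; the design text instead names DEGSeq 1.16.1. How the deposited signal values were normalized is stated in no header or label; from the values, they are read here as per-gene counts that the authors scaled by library. The table also holds the authors' own log2 fold changes (YFP-positive over YFP-negative) and p-values, raw and adjusted. Library depth is unknown, because the table holds selected genes.

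limma 3.58.1 (R 4.3.3) was fitted to log2(value + 1) of all 282 genes with a trended prior variance and Benjamini-Hochberg adjustment over the table, after a check on simulated data. The added 1 makes fold changes of low genes too small, and calls in a selected table are not independent evidence. The same mouse number was taken to mark the same source in both populations, an assumption from the titles. Across genes, the 2 mouse 1 libraries deviated from their groups together (r = 0.395), although genes are no independent replicates, and the mouse number was a block in an alternative fit. Coordinates equalled those of GENCODE M21 for all 7 members. Longest transcripts were aligned to all others with blastn 2.17.0, keeping at least 75 bases at 95% identity. Promoter sequences are RefSeq's, build GRCm38.p6. All members were named, and the members, the marker and transporter lists and the tests were chosen with earlier results of these data known.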

Additional observations from a re-analysis of the deposited data

How the results depend on the processing

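The counts of solute carriers that passed limma were 2 higher under all 10 alternative fits, and 5 lower under 8 of them. The counts were 4 lower without YFP-positive mouse 1 and with the libraries rescaled to equal medians, and Slc39a4 was the gene lost each time. Its log2 fold change was then -1.06 (adjusted p = 0.0562) and -0.52 (adjusted p = 0.124). Rescaling to equal medians moved the median of all 282 genes up by 0.73 on the log2 scale, a shift built in by a list that is mostly lower, and the lower carriers then had log2 fold changes from -2.53 to -0.52 and the higher carriers 2.03 and 2.07. With 1 library left out, which gives the remaining single library the spread of the other group, the log2 fold change ran from -3.98 to -2.50 for Slc15a3, -3.53 to -2.63 for Slc24a3, -3.29 to -1.83 for Slc7a10, -2.06 to -1.39 for Slc22a15, -1.55 to -0.96 for Slc39a4, 0.98 to 1.61 for Slc22a5 and 1.14 to 1.52 for Slc17a9. Mouse 1 and mouse 2 alone gave -4.02 and -2.46 for Slc15a3 and -1.74 and -0.77 for Slc39a4. Each value was farther from the fitted value than the residual spread of that gene's libraries. With 2 libraries per population, this happens whenever the 2 mice rank in opposite order in the 2 populations, whatever the size of the gap. Slc7a10, at -3.05 and -2.07, was about as far from its fitted value as Slc39a4, but its mice ranked in the same order. A difference between the mice was not tested. With the mouse number as a replicate block, 5 lower and 2 higher solute carriers passed, and the block changed no call among them. The limma adjusted p then ran from 0.00197 to 0.00666. Without the variance trend it ran from 0.000251 for Slc24a3 to 0.0106 for Slc39a4, and for Slc15a3 it was 0.000312 instead of 1.70e-06. Adjusted over the 14239 genes that the authors' columns imply were tested, all 7 passed (limma adjusted p at most 0.0433). No fit reversed a direction, which on the deposited scaling the non-overlapping groups fix in advance. The edgeR test on reads inferred from the values was not run, because too few low values were there to infer reads from.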
